A study of Mus musculus with 16 samples.

Results

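The genes described here encode heat shock proteins and the cochaperones that work with them. They were chosen by name, with earlier results of these data known. The 42 symbols of the list were looked up in the deposited tables, and all 42 were found among 23200 gene symbols. The list holds 2 heat shock factors, 5 genes of the HSP70 family, 3 of the HSP110 family, 2 of the HSP90 family, HSP60 with its partner HSP10, 7 small heat shock proteins, 8 DNAJ cochaperones, 2 BAG cochaperones, 5 cochaperones of HSP90 and 6 subunits of the CCT ring. By textbook knowledge 18 of them were counted as heat-inducible and 22 as constitutive, and the 2 heat shock factors were kept apart. The data are RNA-seq of muscle fibres from the extensor digitorum longus (EDL), a fast-twitch hind limb muscle, from which attached mononucleated cells had been removed. All mice were male C57BL/6, and all groups had 4 libraries. Old runners were 22 months of age with 5 weeks of voluntary access to a running wheel, and old controls were 22 months of age without it. Young runners were 4 months of age with the same 5 weeks of running, and young controls were 4 months of age without it. The labels do not say that the libraries came from separate mice, so the tests speak of library-to-library spread, which may be technical. The questions the design poses are what running changed at each age, what age changed with and without running, and whether running acted differently at the 2 ages.

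Chaperones bind unfolded or half-folded proteins and let them fold. HSP70 does so in cycles that DNAJ proteins start and that HSP110 and BAG proteins end by releasing the nucleotide, HSP90 completes the folding of kinases and steroid receptors, HSP60 with HSP10 forms a closed cage in mitochondria, and the CCT ring folds actin and tubulin. Small heat shock proteins hold unfolding proteins in solution and are abundant in muscle, where they sit on the Z-disc and on the filaments. Most of the inducible genes are switched on by heat shock factor 1, encoded by Hsf1, which HSP70, DNAJB1 and HSP90 hold inactive until unfolded proteins draw them away.

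The factor binds repeats of a short unit, GAA or its reverse complement TTC, in alternating orientation. The promoters below belong to Dnajb1 and Hspe1, which were lower in runners, to Bag3, and to the near-identical pair Hspa1a and Hspa1b. Bag3 passed as higher in runners over both ages, a call held in 8 of 21 alternative ways of processing. Its groups overlapped in old mice. Sequences were taken from RefSeq on build GRCm38.p6, 5′ to 3′ on the strand of the gene, and capitals mark each unit of 2 units in a row (GAANNTTC or TTCNNGAA, which read the same on both strands). The windows of Dnajb1 (chr8:83607975-83608174, plus strand), Bag3 (chr7:128523383-128523582, plus strand), Hspa1a (chr17:34972157-34972356, minus strand) and Hspa1b (chr17:34959239-34959438, minus strand) are the 200 bases before the transcription start. For Hspe1 the 30 bases around its units are shown (chr1:55088053-55088082, plus strand), since the longer window overlaps exons of its neighbour Hspd1.
Dnajb1: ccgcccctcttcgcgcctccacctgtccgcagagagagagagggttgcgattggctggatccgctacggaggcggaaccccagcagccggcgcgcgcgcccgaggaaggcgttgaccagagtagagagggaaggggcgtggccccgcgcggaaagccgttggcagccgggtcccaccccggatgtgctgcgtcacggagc
Hspe1: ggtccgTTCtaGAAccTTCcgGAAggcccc
Bag3: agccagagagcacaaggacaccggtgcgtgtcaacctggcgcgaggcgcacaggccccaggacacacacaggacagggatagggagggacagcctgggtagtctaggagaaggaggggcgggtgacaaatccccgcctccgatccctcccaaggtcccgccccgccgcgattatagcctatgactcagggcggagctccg
Hspa1a: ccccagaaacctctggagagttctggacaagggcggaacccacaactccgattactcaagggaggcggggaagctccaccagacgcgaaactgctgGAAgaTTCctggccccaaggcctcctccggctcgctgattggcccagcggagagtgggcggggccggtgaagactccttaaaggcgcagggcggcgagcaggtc
Hspa1b: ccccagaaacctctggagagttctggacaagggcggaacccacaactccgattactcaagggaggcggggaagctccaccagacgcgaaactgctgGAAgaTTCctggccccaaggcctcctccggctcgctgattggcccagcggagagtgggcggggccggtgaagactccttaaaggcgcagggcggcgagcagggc
The Hspe1 stretch holds 4 units in a row, and its reverse complement lies in 1 of the 2 promoter windows of Hspd1, which is read from the other strand. The Hspa1a and Hspa1b windows differ at 1 of 200 positions, and each holds 1 pair of units, which begins at position -104 from the start. The printed Dnajb1 and Bag3 stretches hold no pair of units, and Bag3 has 1 that starts 42 bases into the transcript. RefSeq promoter windows, from 250 bases before to 50 bases after the start, were found for 34 of the 42 genes. At least 1 pair of units stood in 13 of 16 heat-inducible genes (81.2%) and in 5 of 17 constitutive ones (29.4%), against 17% of all 27025 genes. A run of 3 units (the pair GAANNTTC followed by NN and GAA, or TTCNNGAA followed by NN and TTC) stood in 5 of the 34, Hspd1, Hspe1, Hsph1, Chordc1 and Dnajb6, against 0.662% of all genes. A match describes the letters in the window and no binding.

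The 16 libraries held between 30675256 and 67372514 reads on genes, and the 42 genes took between 1.32% and 1.97% of them. Marker genes of muscle fibres summed to at least 175450 TPM (a level in reads per exon length, scaled to the same total in each library) in every library. The young runner library Y1ex had 2.07% and the young control library Yc5 had 1.94% of its reads on mitochondrially encoded genes, against 0.64% to 1.07% in the other 14, and running in young mice, over both ages and in its interaction with age is given with and without both. Markers of fibro-adipogenic progenitors, 10 genes, summed to between 66.6 and 209 TPM in young runners and between 12.4 and 29.3 TPM in young controls, and to between 46.5 and 96.5 TPM in old runners and between 11.7 and 53.7 TPM in old controls. The 11 endothelial markers summed to between 31.4 and 141 TPM in young runners and between 8.34 and 30.8 TPM in young controls. In old mice their sums overlapped, with 23.8 to 100 TPM in old runners and 10.6 to 116 TPM in old controls. Over both ages 4 of the 10 fibro-adipogenic markers passed the threshold as higher in runners, and 1 each of the muscle fibre (Myh1), macrophage, smooth muscle, Schwann cell and tendon cell lists did, against 2.91% of all genes. The part of these cells in the results below was not tested. In RNA from whole fibres, fewer fibres of a kind and less RNA per fibre cannot be told apart.

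Small heat shock proteins were the most abundant of these transcripts. On the TPM scale the median level over the 16 libraries was 2958 for Hspb6, 2735 for Hspb8, 2519 for Cryab and 1506 for Hspb1. The 7 small heat shock protein genes together made 61.65% of the TPM of the 42 genes in old runners, 61.2% in old controls, 62.5% in young runners and 60.8% in young controls. The constitutive cytosolic chaperones came next, with medians of 953 TPM for Hsp90ab1 and 862 TPM for Hspa8, the HSC70 that serves cells at rest. Hspb7, a small heat shock protein of heart and muscle, had a median of 745 TPM, Bag1 had 665 TPM, Bag3, which leads clients of HSP70 to autophagy, had 491 TPM, and the mitochondrial HSP70 gene Hspa9 had 410 TPM. The inducible HSP70 genes stood at medians of 242 TPM for Hspa1b and 138 TPM for Hspa1a. Unc45b, the myosin chaperone, had a median of 294 TPM, and the 6 CCT subunits had medians between 56.5 TPM for Cct3 and 208 TPM for Cct5. The lowest were Hspa2 at 11.1 TPM, Hspa4l at 2.68 TPM and Hsf2 at 0.70 TPM, while Hsf1 had 33.2 TPM. Hspb6 and Hspb8 did not differ in order beyond their spread, since single libraries ranged from 2282 to 4386 TPM for Hspb6 and from 1312 to 5189 TPM for Hspb8. Dnajb1 ranged between 70.5 and 926 TPM over the 16 libraries, with a median of 258 TPM.

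**Figure D1:**
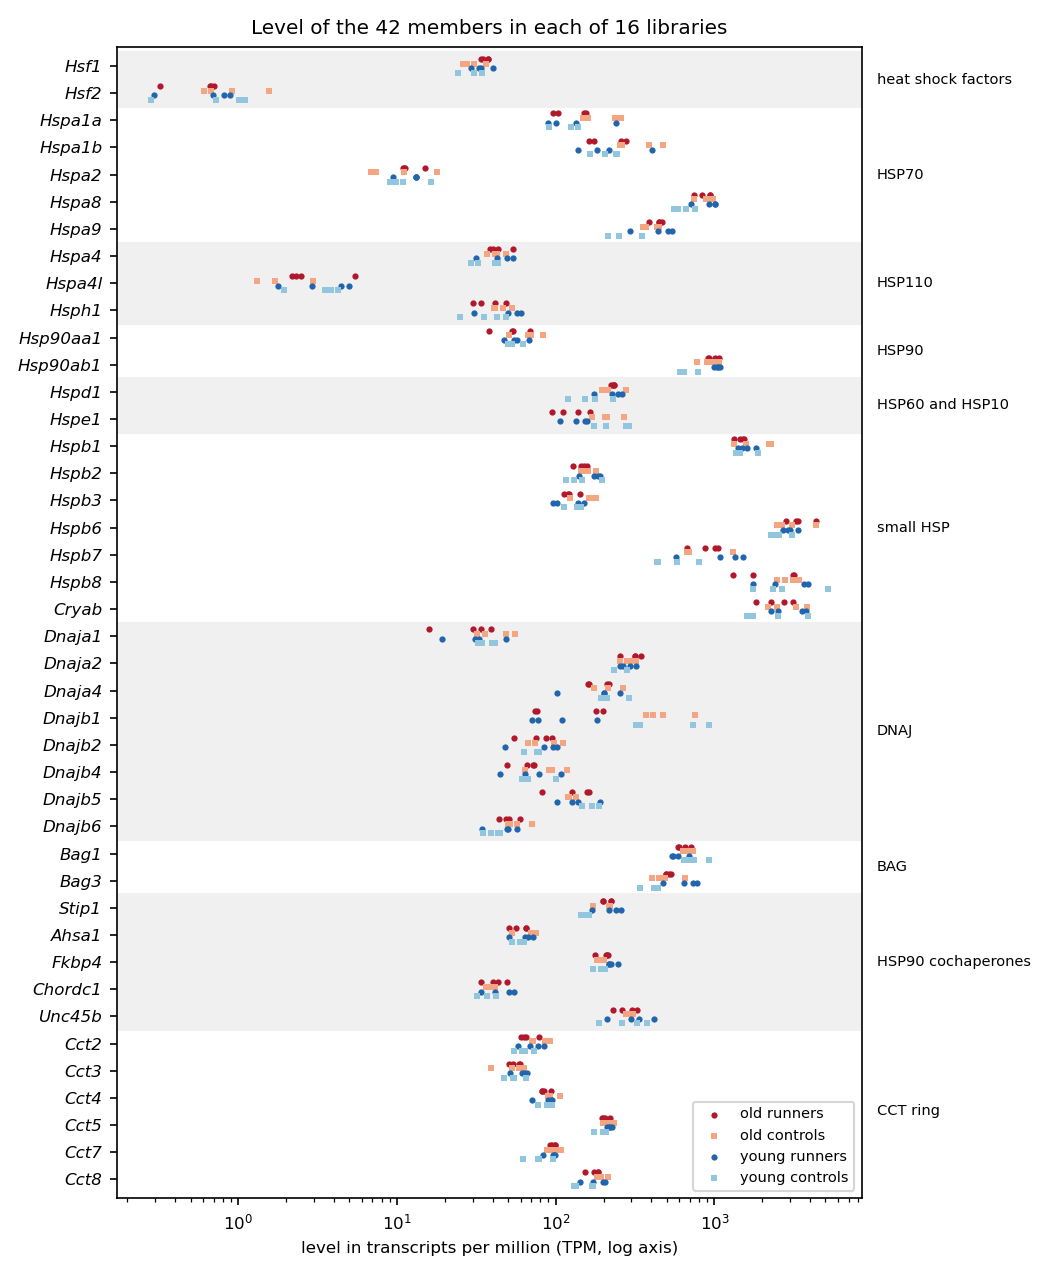
Level of the 42 genes in each of the 16 libraries, in TPM on a log axis, 1 row per gene, grouped by family, with points coloured by group. The small heat shock proteins Hspb6, Hspb8 and Cryab lie highest, with medians of 2958, 2735 and 2519 TPM, and Hsf2 lies lowest, with 0.70 TPM. The old control library with 0 reads of Hspa4l cannot be drawn on this axis.

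Dnajb1 was lower in runners than in controls at both ages, and its difference was the largest of the 42 genes in the limma fits of old and of young mice. It encodes the DNAJ protein that feeds unfolded proteins to inducible HSP70, and lies on chromosome 8 (83608193 to 83612653, plus strand, GENCODE M21 on mm10). Counted as normalised reads, which are the reads of a gene divided by the size factor of the library, it had 3809, 4697, 8321 and 10436 in old runners, against 19217, 19477, 24877 and 42314 in old controls. All 4 old runner libraries were below all 4 old controls, which held for 5.29% of all genes in old mice as lower and for 4.87% as higher. It had 3668, 3920, 6669 and 8558 normalised reads in young runners, against 16109, 19581, 35815 and 47369 in young controls. Again no library of one group reached the other, which held for 5.78% of all genes in young mice as lower. Over both ages all 8 runner libraries were below all 8 controls, which held for 0.65% of the 14147 genes tested over both ages in this direction. The means were 6816 ± 3104 in old runners and 26471 ± 10879 in old controls (SD, n = 4 each), 0.257 times as many. They were 5704 ± 2338 in young runners and 29719 ± 14568 in young controls (SD, n = 4 each), 0.192 times as many. On the log2 scale of the deposited values the difference was -2.30 (SE 0.37, adjusted p = 0.0357, limma) in young mice, where Dnajb1 was the 1 of the 42 genes past the adjusted threshold of 0.05. In that comparison 0.762% of the 10624 genes tested passed it in either direction, and 0.48% passed it as lower. In old mice the difference was -1.91 (SE 0.33, adjusted p = 0.0566), just short of the threshold. There 0 of the 41 genes tested passed with limma, against 0.128% of 9379 genes in either direction (0.0746% higher and 0.0533% lower). The count was 0 too with voom on the recovered reads of the pair, where 3 of 9379 genes passed. It was also 0 with voom on all 16 libraries, where 7 of 14147 genes passed. With 8 runners against 8 controls in 1 voom model of all libraries, Dnajb1 fell by 2.17 on the log2 scale (SE 0.29, adjusted p = 0.00227). The young call was lost when a single library other than Yc4 was left out: without any 1 of those 7 the adjusted p lay between 0.0544 and 0.134, and without Yc4 it was 0.0205. Without both Y1ex and Yc5 the difference was -2.37 (adjusted p = 0.0851), and 0 of the 42 genes passed in young mice, against 0.0198% of all genes. The old difference passed without the control Oc1 (adjusted p = 0.0284). Dnajb1 shares 0.412% of its 50-base windows with transcripts of other genes.

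Of the mitochondrial pair Hspd1 and Hspe1, whose genes start from a shared promoter region, only Hspe1 passed for running over both ages. Hspd1 stood at 0.28 there (SE 0.12, adjusted p = 0.168, voom). Whether the 2 genes differed from each other was not tested. Hspe1, which encodes the HSP10 lid of the folding cage, fell with running over both ages by 0.75 on the log2 scale (SE 0.16, adjusted p = 0.0159, voom). It had 2663, 2690, 3261 and 3547 normalised reads in old runners, against 4073, 4545, 4970 and 7034 in old controls. It had 2494, 3296, 3737 and 3757 normalised reads in young runners, against 4065, 4652, 6521 and 7679 in young controls. As for Dnajb1, each of the 8 runner libraries was below each of the 8 controls, which held for 0.65% of all genes. Within 1 age the Hspe1 difference did not pass, at -0.67 in old mice (SE 0.17, adjusted p = 0.125, limma) and -0.73 in young mice (SE 0.22, adjusted p = 0.142). Hspd1, which encodes the HSP60 walls of the cage, had 8846 to 11256 normalised reads in old runners and 8250 to 12928 in old controls, and 8808 to 10355 in young runners and 5607 to 9629 in young controls. Its differences were 0.10 in old mice (SE 0.16, adjusted p = 0.78) and 0.45 in young mice (SE 0.17, adjusted p = 0.219), so the groups overlapped at both ages. Hspe1 shares 18.4% and Hspd1 39.7% of their 50-base windows with pseudogenes and other transcripts, and their annotated ends overlap on opposite strands in libraries whose kit does not mark strand, so their counts are uncertain to that extent.

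Over both ages 5 of the 42 genes passed the threshold for running, 3 higher and 2 lower, against 2.91% of 14147 genes higher and 2.78% lower (5.68% in either direction). The 3 higher ones were Hspa9 (log2 difference 0.45, SE 0.11, adjusted p = 0.0313), Hsp90ab1 (0.38, SE 0.09, adjusted p = 0.0316) and Bag3 (0.39, SE 0.10, adjusted p = 0.0381). For each of the 3 the groups did not overlap in young mice and did overlap in old mice. Of all genes, 5.72% were apart as higher in young mice and 4.87% in old mice. The young libraries entered the model that called these 3 genes, so their being apart is no separate support. Hspa9, which pulls proteins into mitochondria and folds them there, had 23934, 27812, 35700 and 36830 normalised reads in young runners, against 16498, 16592, 17308 and 23828 in young controls. Hsp90ab1, the constitutive cytosolic HSP90, had 45887, 51157, 51719 and 56536 normalised reads in young runners, against 28920, 29194, 34571 and 37271 in young controls. Bag3 had 23125, 26573, 29377 and 29873 normalised reads in young runners, against 13900, 16415, 17522 and 20244 in young controls. The means of these genes in young runners were 1.58 to 1.67 times those in young controls. In old mice, Hspa9 had 28113 to 32692 normalised reads in old runners and 25037 to 33783 in old controls. Hsp90ab1 had 40211 to 52250 normalised reads in old runners and 37874 to 56309 in old controls. Bag3 had 18547 to 24176 normalised reads in old runners and 16883 to 24254 in old controls. Within the young mice alone the limma differences were 0.73 for Hspa9 (SE 0.19, adjusted p = 0.091), 0.66 for Hsp90ab1 (SE 0.15, adjusted p = 0.066) and 0.67 for Bag3 (SE 0.16, adjusted p = 0.0711), none past the threshold. With libraries weighted by their quality in limma, 10 of the 42 genes passed in young mice, where 13.1% of all genes did. In the voom model of all 16 libraries 5 passed in young mice (Dnajb1, Hspa9, Hsp90ab1, Bag3 and Stip1), where 1.95% of all genes did. Without Y1ex and Yc5, the 2 libraries with the highest mitochondrial share, Dnajb1, Hspe1, Hspa9 and Hsp90ab1 passed over both ages, and Bag3 did not (0.40, adjusted p = 0.0519). The shares of all genes that passed in this fit and in those that left out a single library are not given here. Without any 1 of O1ex, O2ex, O4ex, Oc3, Y2ex, Yc7 or Yc8, only Dnajb1 and Hspe1 of the 42 genes passed. The Bag3 call was lost in 11 of the 16 fits that left out a single library, those 7 and the ones without Oc1, Oc2, Y1ex or Y4ex, with adjusted p-values up to 0.0894, and with total reads as the scaling (adjusted p = 0.0994).

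**Figure D2:**
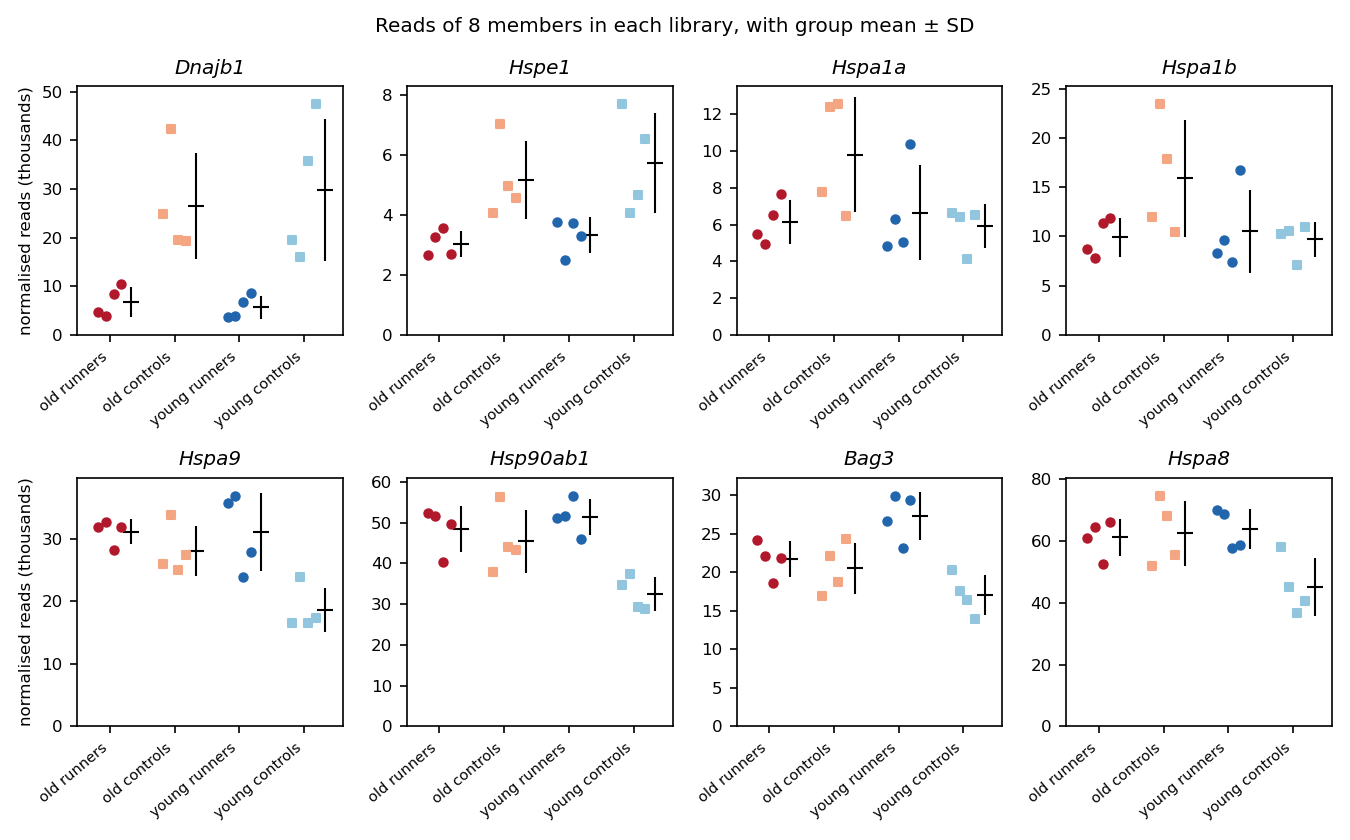
Normalised reads (linear axis from 0, scaled as its label says) of 8 genes in each library, 4 points per group, with the group mean and SD as a black bar. Dnajb1 and Hspe1 lie lower in all 8 runner libraries than in any control, and Hspa9, Hsp90ab1 and Bag3 lie higher in young runners than in young controls but overlap between old runners and old controls. Hspa8 overlaps at both ages, in young mice with 1 runner at 57897 below 1 control at 58027.

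The inducible HSP70 genes themselves passed in none of the comparisons as fitted here, and Hspa1a passed in 1 alternative, age in controls with array weights (0.96, adjusted p = 0.0398). Hspa1a had 4929, 5470, 6501 and 7651 normalised reads in old runners, against 6472, 7781, 12396 and 12542 in old controls, a log2 difference of -0.60 (SE 0.22, adjusted p = 0.211). Hspa1b had 7849, 8682, 11330 and 11906 normalised reads in old runners, against 10414, 11964, 17844 and 23412 in old controls, a log2 difference of -0.60 (SE 0.24, adjusted p = 0.238). For both genes 3 of the old control libraries, Oc1, Oc2 and Oc3, lay above all old runners, and Oc4 lay among them, so the groups overlapped. In young mice the differences were 0.12 for Hspa1a (SE 0.25, adjusted p = 0.841) and 0.05 for Hspa1b (SE 0.25, adjusted p = 0.93), and both turned negative without the young runner Y4ex, at -0.11 and -0.19, and without the young control Yc7, at -0.04 and -0.08. Hspa1a shares 66.3% and Hspa1b 62.3% of their 50-base windows with transcripts of other genes, mostly with each other, and how reads that fit both were counted is not given in the sources used here, so the 2 genes are not independent measurements. Hspa8, their constitutive relative, had 57897, 58839, 68912 and 69942 normalised reads in young runners, against 36653, 40716, 45153 and 58027 in young controls, a log2 difference of 0.51 (SE 0.17, adjusted p = 0.176).

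Across the families in old mice, 17 of the 41 genes tested lay above 0 for runners against controls, compared with 54.8% of all genes, and the median difference was -0.06 against 0.03 for all genes. At an unadjusted p under 0.05 there were 5 lower and 0 higher, against 7.04% lower and 10.3% higher of all genes: Dnajb1, Hspe1, Hspa1a, Dnajb4 and Hspa1b. Dnajb4, a muscle DNAJ, had a log2 difference of -0.43 (SE 0.16, adjusted p = 0.216), and Dnaja1, which primes HSP70 for folding, had -0.49 (SE 0.23, adjusted p = 0.315). Within the other families the smallest p-values belonged to Hsf1 (0.28) among the factors, Hspa4l (0.83) and Hsph1 (-0.21) of HSP110, Hsp90aa1 (-0.29) and Hsp90ab1 (0.11) of HSP90, Hspb3 (-0.25) and Hspb8 (-0.39) of the small heat shock proteins, Cct2 (-0.21) and Cct8 (-0.10) of the CCT ring, Bag3 (0.09) and Bag1 (-0.06) of the BAG genes and Ahsa1 (-0.13) and Chordc1 (0.13) of the HSP90 cochaperones, with adjusted p-values of 0.303 or more. The Hspa4l value was 0.39 without the old control library Oc1, which held 0 reads of it. Hsf2 did not pass the filter of the limma fit in old mice, with 58.7 to 106 normalised reads in old runners and 102 to 219 in old controls.

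In young mice 32 of the 42 genes lay above 0, compared with 51.5% of all genes, with a median of 0.16 against 0.01 for all genes. At an unadjusted p under 0.05 there were 7 higher and 2 lower, against 8.85% higher and 8.51% lower of all genes. On the deposited log2 values the groups were apart for 5 genes as higher, Hspa8 (whose normalised reads overlapped, as given above), Hspa9, Hsp90ab1, Bag3 and Stip1, and for 2 as lower, Dnajb1 and Hspe1, against 5.72% and 5.78% of all genes. Stip1, which carries clients of HSP70 over to HSP90, had 6794, 7411, 7458 and 8559 normalised reads in young runners, against 4686, 4967, 5188 and 6060 in young controls, a log2 difference of 0.51 (SE 0.14, adjusted p = 0.108). Hspb7 had 30030, 44027, 58945 and 67610 normalised reads in young runners, against 18395, 19506, 28884 and 35053 in young controls, a difference of 0.95 (SE 0.28, adjusted p = 0.13) with 1 runner inside the range of the controls. Of the rest, Hsph1 (0.38) and Hspa4 (0.26) led HSP110, Hspb6 (0.24) followed Hspb7 among the small heat shock proteins, Dnaja2 (0.22) and Dnajb5 (-0.23) followed Dnajb1 among the DNAJ genes, Chordc1 (0.27) followed Stip1 among the HSP90 cochaperones, Bag1 stood at -0.33, and Cct8 (0.24) and Cct7 (0.28) led the CCT ring. Their adjusted p-values were 0.357 or more. Hsf1 stood at 0.19 and Hsf2 at -0.07, and Hsp90aa1, the inducible HSP90, at 0.07 (adjusted p = 0.835).

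**Figure D3:**
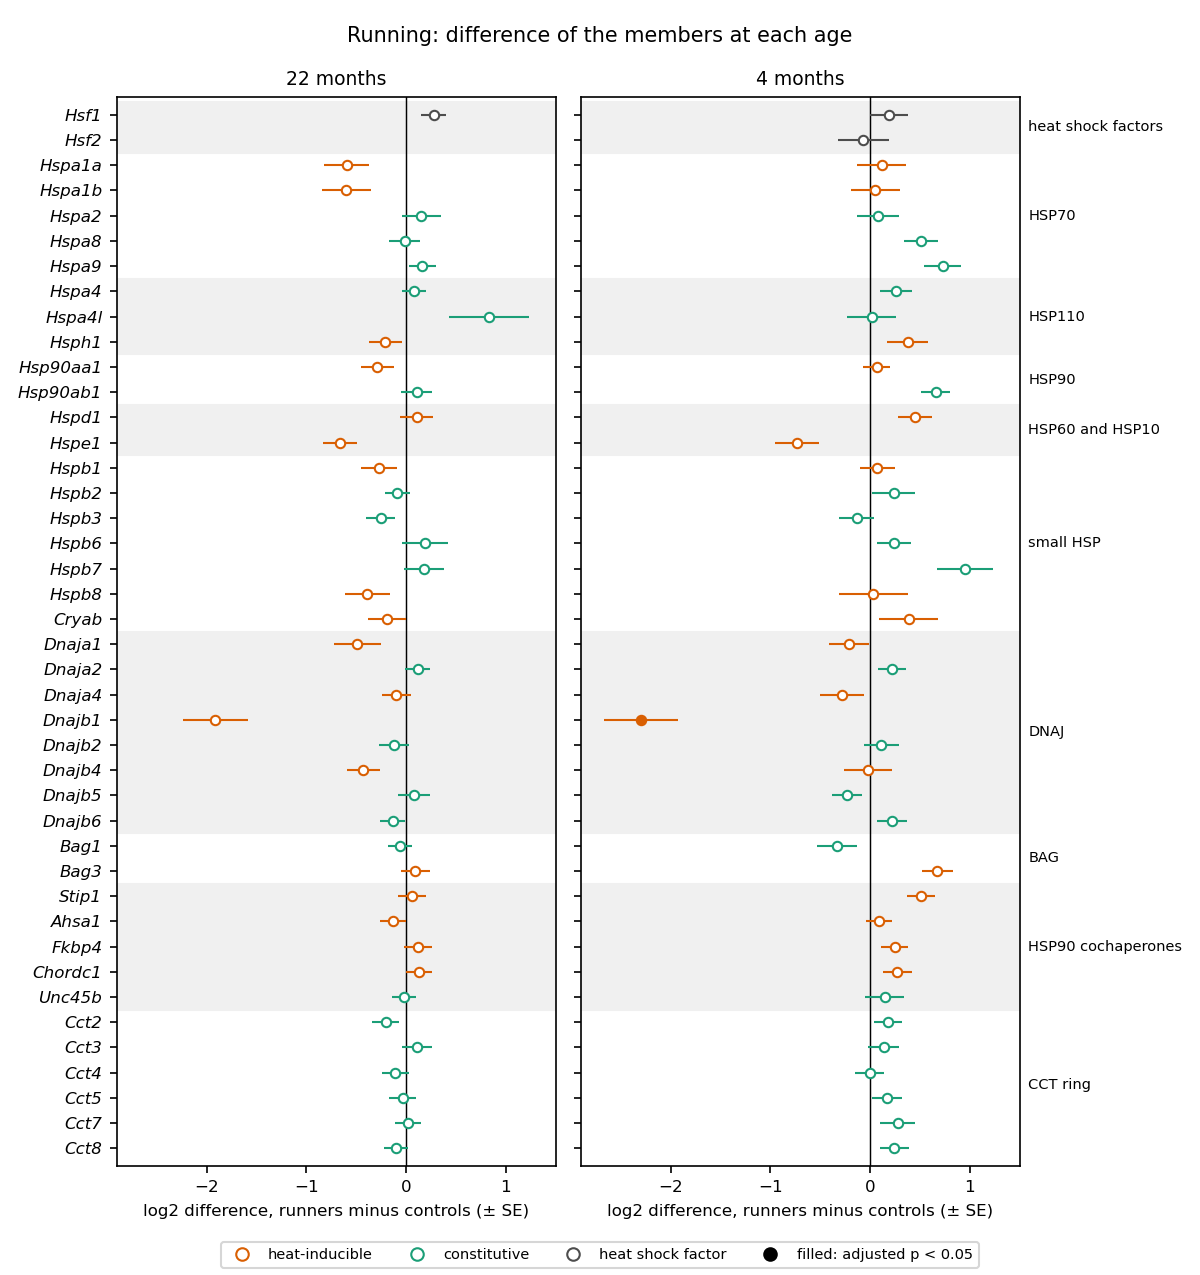
Log2 difference of runners minus controls with its SE for each of the 42 genes, at 22 months (left) and at 4 months (right), coloured as heat-inducible, constitutive or factor, filled where the adjusted p was under 0.05. Dnajb1 lies at -1.91 and -2.30, and 24 of 41 genes lie left of 0 in old mice while 32 of 42 lie right of 0 in young mice.

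The test of that contrast itself, the running difference in old mice minus that in young mice in the voom model of 16 libraries, found 0 of the 42 genes past the threshold and 0 of all 14147. At an unadjusted p under 0.05 there were 8 lower and 1 higher, against 2.5% lower and 4.77% higher of all genes (7.27% in either direction), and limma on log2 normalised reads and on the stacked tables also called 0 of the 42. The 8 were Bag3 (-0.60, SE 0.20), Hsp90ab1 (-0.57, SE 0.19), Hspa9 (-0.58, SE 0.22), Stip1 (-0.49, SE 0.19), Hspa8 (-0.54, SE 0.21), Cct2 (-0.45, SE 0.19), Hsph1 (-0.64, SE 0.29) and Cct8 (-0.37, SE 0.18), each with an adjusted p of 0.551 or more. The 1 higher was Hspa4l (3.17, SE 1.45), for which the old control Oc1 had 0 reads; without Oc1 the value was 0.69. Without Y1ex and Yc5 the interaction again called 0 of the 42 genes and 0 of all genes. This test was also run on simulated data, with the changed genes drawn at random from all genes tested. It found 8 of 100 genes changed by 1 on the log2 scale and 43 of 100 changed by 2. Its yield for the 42 genes alone was not worked out. The 0 calls therefore do not show that running acted alike at the 2 ages. In all, 34 of the 42 genes had a running difference lower in old than in young mice, with a median of -0.29, while 58.5% of all genes lay above 0 and their median was 0.12. Among the families, 7 of 7 small heat shock proteins, 5 of 5 HSP90 cochaperones, 6 of 6 CCT subunits and 2 of 2 HSP90 genes were on the lower side. In the other families it was 4 of 5 HSP70, 2 of 3 HSP110 and 5 of 8 DNAJ genes. It was 1 of 2 each for HSP60 with HSP10, the BAG genes and the heat shock factors. For Dnajb1 the difference between the ages was 0.34 (SE 0.58, adjusted p = 0.937) and for Hspe1 0.03 (SE 0.31, adjusted p = 0.992). For Hspe1 it lay between -0.12 and 0.20 when single libraries were left out.

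Set by induction, the 18 heat-inducible genes had a median running difference of -0.24 in old mice, with 13 of 18 below 0, and the 22 constitutive ones 0.00, with 11 of 22 below 0. In young mice the medians were 0.08 for the inducible and 0.20 for the constitutive genes, with 13 of 18 and 18 of 22 above 0. The medians of all genes tested were 0.03 in old mice and 0.01 in young mice. Of the calls over both ages, Dnajb1 and Hspe1 (lower) and Bag3 (higher, a call held in 8 of 21 alternatives) are inducible, and Hspa9 and Hsp90ab1 (higher) are constitutive, against 2.78% of all genes lower and 2.91% higher.

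Ratios of a heat-inducible gene to a constitutive relative were taken within each library, where its size factor cancels. The log2 ratio of TPM of Hsp90aa1 to Hsp90ab1 was -4.22 ± 0.35 in old runners and -3.80 ± 0.10 in old controls (SD, n = 4 each). It was -4.22 ± 0.20 in young runners and -3.62 ± 0.04 in young controls (SD, n = 4 each), and the young groups did not overlap, with -4.40 to -3.93 in runners and -3.66 to -3.59 in controls. For Dnajb1 over Dnajb6, a DNAJ that keeps aggregating proteins apart, the ratio was 1.24 ± 0.78 in old runners and 3.08 ± 0.61 in old controls, and 1.12 ± 0.63 in young runners and 3.69 ± 0.93 in young controls (SD, n = 4 each), without overlap at either age. For Bag3 over Bag1, which couples HSP70 to the proteasome, it was -0.32 ± 0.14 in old runners and -0.49 ± 0.22 in old controls, and 0.14 ± 0.48 in young runners and -0.88 ± 0.26 in young controls (SD, n = 4 each). The young groups were apart here by a narrow gap, with the lowest runner at -0.53 and the highest control at -0.58. For Hspa1a over Hspa8 it was -2.80 ± 0.32 in old runners and -2.18 ± 0.28 in old controls, and -2.79 ± 0.58 in young runners and -2.40 ± 0.25 in young controls (SD, n = 4 each), with overlap at both ages. The pairs Hspa1b over Hspa8, Hsph1 over Hspa4, Dnaja4 over Dnaja2 and Hspb1 over Hspb6 overlapped at both ages too. These ratios are descriptions with no test, since the pairs were chosen with earlier results known. How often ratios of other gene pairs were apart was not worked out. In young mice Hsp90aa1 itself differed by 0.07 and Hsp90ab1 by 0.66, so their ratio restates the Hsp90ab1 difference. Hspb1 shares 50.1%, Hsp90aa1 47.5%, Dnaja4 42.7%, Hspa8 39.4% and Dnajb6 21% of their 50-base windows with transcripts of other genes, which makes their ratios uncertain to that extent.

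**Figure D4:**
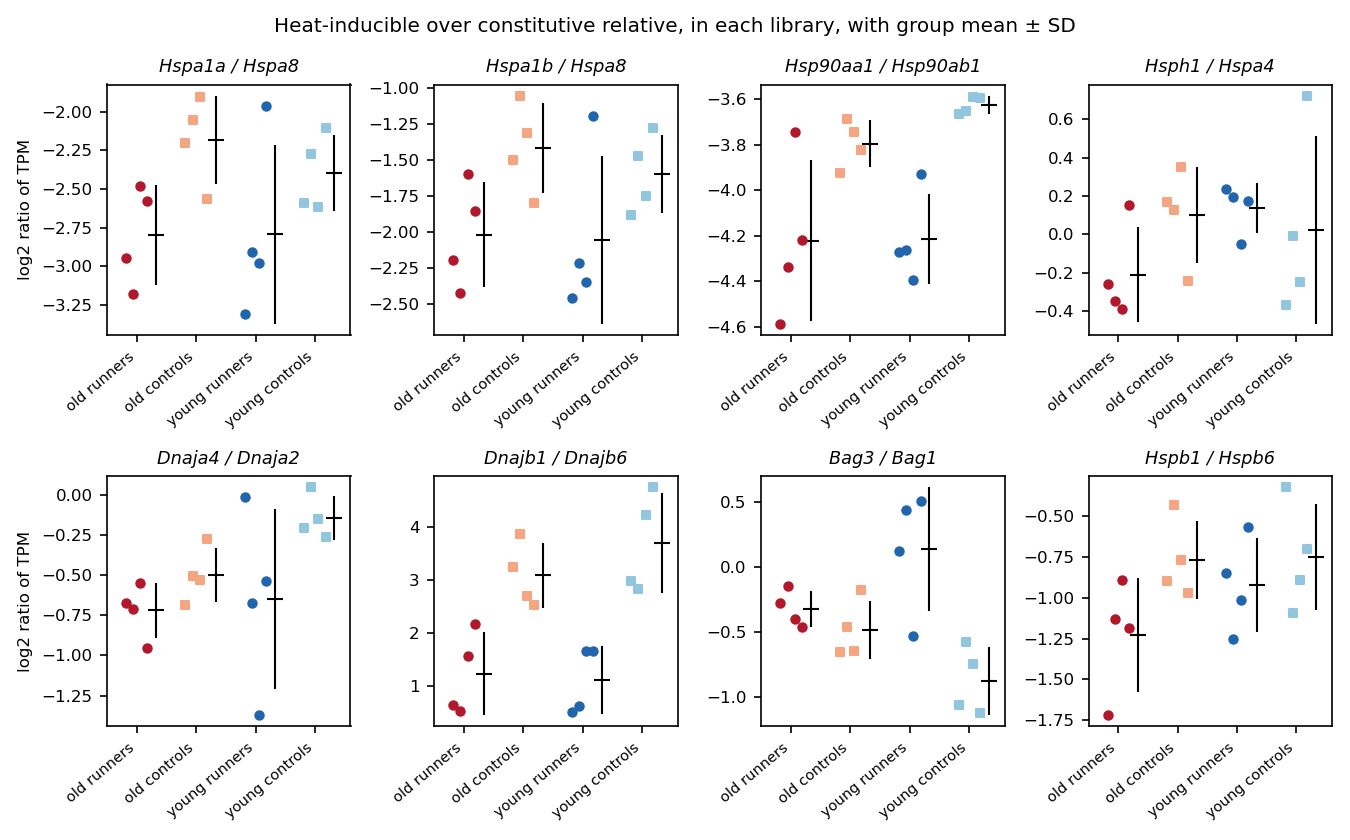
Log2 ratio of TPM of a heat-inducible gene to a constitutive relative in each library, 8 pairs, 4 points per group, with the group mean and SD as a black bar. Dnajb1 over Dnajb6 lies between 0.52 and 2.18 in runners and between 2.53 and 4.74 in controls, and Hsp90aa1 over Hsp90ab1 lies at or below -3.93 in young runners and at or above -3.66 in young controls.

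Age was compared first among runners and then among controls, and these comparisons use the same libraries as those of running. Among runners 0 of the 41 genes tested passed with limma, against 0.0213% of 9387 genes. The count was 0 with voom too, for which the share of all genes is not given here. At an unadjusted p under 0.05 limma gave 0 higher and 1 lower, against 2.41% and 2.5% of all genes (4.91% in either direction). The 1 lower was Bag3, with 18547, 21817, 22078 and 24176 normalised reads in old runners, against 23125, 26573, 29377 and 29873 in young runners (log2 difference -0.32, SE 0.14, adjusted p = 0.982). The genes lay close to 0, from -0.33 for Hspb8 to 0.22 for Dnajb1, with a median of -0.07 against 0.00 for all genes, and 12 of 41 lay above 0, against 51.3% of all genes. The groups overlapped for each of the 41, while 1.82% of all genes were apart as higher and 1.55% as lower.

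Among controls 0 of the 42 genes passed with limma, against 0.112% of 9831 genes in either direction (0.061% higher and 0.0509% lower). The count was 0 with voom too, for which the share of all genes is not given here. At an unadjusted p under 0.05 limma gave 10 higher and 2 lower, against 5.43% higher and 5.75% lower of all genes. In all 34 of 42 lay above 0, against 49.3% of all genes, with a median of 0.23 against -0.01. The groups were apart for Hspa9, Dnajb6, Hsp90ab1, Cct8 and Cct2 as higher in old controls and for Dnajb5 as lower, against 4.17% and 2.84% of all genes. Hspa9 had 25037, 26016, 27347 and 33783 normalised reads in old controls, against 16498, 16592, 17308 and 23828 in young controls (0.62, SE 0.17, adjusted p = 0.228). Dnajb6 had 4980, 5474, 5673 and 6311 normalised reads in old controls, against 3364, 3656, 4285 and 4670 in young controls (0.49, SE 0.15, adjusted p = 0.256). Hsp90ab1 had a difference of 0.50 (SE 0.16, adjusted p = 0.289), with 37874 to 56309 normalised reads in old controls and 28920 to 37271 in young controls. Dnajb5, a DNAJ enriched in muscle and brain, had 10475 to 12991 normalised reads in old controls and 13816 to 17431 in young controls (-0.35, SE 0.14, adjusted p = 0.372). Further differences were 0.69 for Hspa1a, 0.66 for Hspa1b, 0.50 for Hspa8, 0.43 for Stip1, 0.57 for Hspb7, 0.29 for Hspb6, 0.17 for Ahsa1, 0.37 for Cct8, 0.33 for Cct2, 0.41 for Hspd1, -0.11 for Hspe1, 0.28 for Bag3, -0.10 for Bag1, 0.31 for Hsp90aa1 and for Hsph1 0.30, with adjusted p-values of 0.314 or more. Hspa4l stood at -0.98 (SE 0.43, adjusted p = 0.432), a value that includes the old control Oc1 with 0 reads. Oc2, Oc3 and Oc4 had 353, 568 and 225 normalised reads of Hspa4l, against a mean of 638 in young controls. The heat shock factors stood at 0.02 for Hsf1 and 0.13 for Hsf2, and Dnajb1 at -0.09 (SE 0.36, adjusted p = 0.947). The 4 comparisons share libraries: young controls are the lower side both of running in young mice and of age in controls, for Hspa9, Hsp90ab1, Hspa8 and Stip1 alike, and their 4 libraries enter both differences.

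Deviations of each library from its group mean were compared for 8 pairs of genes over the 16 libraries, on the log2 scale of normalised reads. Hspa1a and Hspa1b varied together (Pearson's r = 0.966, permutation p = 9e-05, adjusted over the 8 pairs 0.00036; Spearman's rho = 0.938, permutation p = 0.00019), and r was 0.945 without the 2 farthest libraries. These 2 genes share most of their 50-base windows, as given above. Cryab and Hspb8, 2 small heat shock proteins that meet in BAG3 complexes, varied together too (r = 0.897, permutation p = 3e-05, adjusted 0.00024; rho = 0.838, permutation p = 5e-05), with r = 0.783 without the 2 farthest libraries. The other 6 pairs did not pass after adjustment. Among them Dnajb1 and Hspe1 had r = 0.298 (permutation p = 0.324, adjusted 0.37; rho = 0.329, permutation p = 0.286), and Hspd1 and Hspe1 had r = -0.24 (permutation p = 0.505, adjusted 0.505; rho = -0.35, permutation p = 0.25).

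Of 79 further chaperone genes in 5 lists, 77 were tested for running over both ages and 3 passed, against 5.68% of all genes, and 0 passed within either age alone. Bag6, which guards proteins bound for membranes, was higher (0.42, SE 0.12, adjusted p = 0.046), as was the mitochondrial protease gene Lonp1 (0.50, SE 0.14, adjusted p = 0.0448), and the prefoldin gene Pfdn1 was lower (-0.46, SE 0.12, adjusted p = 0.0359). By list the counts called were 1 of 24 other cochaperones, 0 of 21 other J-domain proteins, 1 of 10 other CCT and prefoldin genes, 1 of 14 other mitochondrial chaperones and proteases and 0 of 8 other genes linked to HSF1. In the comparisons of age 0 of them passed. Among immediate early genes, which cells switch on within minutes of a stimulus, 5 of 18 passed over both ages as lower in runners, Fos, Junb, Ier2, Zfp36 and Nr4a1, and 0 as higher, against 2.78% of all genes lower and 2.91% higher. Their median difference was -0.36, against 0.06 for all genes, and 3 of the 18 lay above 0. In old mice 3 of 17 passed as lower, Fos, Ier2 and Zfp36, against 0.0533% of all genes, with a median of -0.66 against 0.03 for all genes. In young mice 0 of 17 passed with limma, against 0.48% of all genes as lower, with 3 lower and 0 higher at an unadjusted p under 0.05, and the median was -0.19 against 0.01 for all genes. Zfp36, whose product destabilises cytokine mRNA, had 8395 to 9897 normalised reads in old runners and 22490 to 32109 in old controls, and 7960 to 13957 in young runners and 17454 to 51854 in young controls. Their part in the Dnajb1 difference was not tested.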

How the data were processed

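RNA-seq of 16 libraries was analysed in 4 groups of 4. Per the labels' protocols, libraries were made from total RNA with SMART-Seq v4 and Ovation Ultralow kits, which do not mark strand. Per the submitters' processing notes, the tools used include Trim Galore, STAR, featureCounts and DESeq2, with the mouse build mm10; versions, annotation and the handling of multi-mapping reads are not given in the sources used here. Values were deposited by the authors as log2 per gene in 4 tables, 1 per pair of groups, and 0 other columns of samples were left unused. Whole reads were recovered from the steps of these values (100% within 0.02 reads), and library depth was 30675256 to 67372514 reads on genes. Rows with gene names turned into dates, 21 in each table, were left out.

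Each pair was tested with limma 3.58.1 (R 4.3.3) on the deposited log2 values, with a variance trend and Benjamini-Hochberg adjustment over all genes at least 1 above the floor of the table in at least 4 libraries. Running over both ages and its interaction with age used voom on the recovered reads of all 16 libraries, for genes with at least 10 normalised reads in at least 4 libraries. TPM used exon lengths of GENCODE M21, matched to 95.9% of symbols. Correlations used 1e+05 permutations. Scripts were tested on simulated data. The 42 genes and all lists were chosen with earlier results of these data known. Called genes are named with every library, and others by family, with the 2 smallest p-values of each. Alternatives were other filters, scalings, weights, voom and leaving out single libraries; a trend on exon length, stacked tables and the removal of Y1ex and Yc5 were added after seeing the data.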

Additional observations from a re-analysis of the deposited data

Results flagged for a closer look

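In 13 of 168 sets of 4 libraries (42 genes in 4 groups) the highest or lowest library lay far from the other 3 by Dixon's criterion, where chance gives about 1 in 20, or 8.4. Among old runners, Hsf2 was lowest in O1ex (58.7 normalised reads), Hspa9 in O3ex (28113) and Cct3 in O3ex (5008), and Unc45b was highest in O2ex (23567). Among old controls, Hspd1 (12928) and Fkbp4 (9367) were highest in Oc2, Hspb7 was highest in Oc4 (52850), and Hspa4l was at 0 in Oc1. Among young runners, Hsp90aa1 was highest in Y4ex (3944). Among young controls, Hspa1a (4124) and Hspa1b (7097) were lowest in Yc7, Hspa9 was highest in Yc5 (23828) and Hspb1 was highest in Yc4 (34497).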

How the results depend on the processing

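Counts of the 42 genes past the threshold moved with the processing, and the cause was not tested. For running in old mice, 0 became 1 (Dnajb1 each time) under median centring, quantile normalisation or a stricter filter (2 above the floor). In those fits 23 of 9379, 24 of 9379 and 27 of 6506 genes passed, in that order. The count became 2 with array weights, where 7.34% of all genes passed. It lay between 0 and 3 when single libraries were left out (3 without Oc1, where 3.19% of all genes passed). For running in young mice, 1 became 0 without a filter, with voom on the pair and without Y1ex and Yc5, 10 with array weights (13.1% of all genes) and 5 with voom on 16 libraries (1.95% of all genes), and lay between 0 and 2 when single libraries were left out. For age in controls, 0 became 5 with array weights (4.69% of all genes), among them Hspa1a. Over both ages, 5 (where 5.68% of all genes passed) became 3 with total reads as the scaling (Dnajb1, Hspe1 and Hsp90ab1), and lay between 2 and 6 when single libraries were left out. The shares of all genes in these alternatives, and in the fits of young mice that left out a single library, are not given here. For age in runners and for the interaction the count stayed at 0 in all alternatives run.

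A replicate block of the runner numbers was fitted for age in runners and called 0 of the 42 genes. Same-numbered runners correlated between -0.40 and 0.09 and 0 of the old runners matched their own number best. Whether the shared numbers mark a pairing cannot be decided from so few correlations. No paired analysis was possible for running because the labels give the controls the numbers 5 to 8, which no runner has, and the control columns (Oc1 to Oc4 and Yc4, Yc5, Yc7 and Yc8) could not be matched to single samples.

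Signs turned for small differences. Running in old mice gave -0.0188 for Hspa4, 0.0573 for Bag1 and -0.0194 for Chordc1 with the exon length trend removed. Running in young mice gave 0.17 for Hsf2 without Y1ex and Yc5. Age in controls gave -0.0139 for Hsf2, 0.0178 for Hspe1 and 0.0291 for Bag1 with array weights. Age in runners gave 0.00313 for Hspa1b with median centring. Age in runners gave -0.0794 for Hspa4, -0.0227 for Hspd1, -0.0446 for Dnaja4 and -0.0119 for Dnajb6 with array weights. When single libraries were left out, the lowest and highest log2 differences were as follows. For running in old mice they were -0.0978 and 0.0789 for Hspa8 and -0.000818 and 0.343 for Hspb6. For running in young mice they were -0.228 and 0.078 for Hsf2, -0.114 and 0.241 for Hspa1a and -0.188 and 0.191 for Hspa1b. For age in controls they were -0.0749 and 0.0819 for Hsf1, -0.00279 and 0.202 for Hsf2, -0.263 and 0.0412 for Hspe1, -0.161 and 0.0251 for Dnaja4, -0.34 and 0.179 for Dnajb1 and -0.183 and 0.045 for Bag1. For age in runners they were -0.0169 and 0.238 for Hsf1, -0.183 and 0.164 for Hspa1a, -0.154 and 0.217 for Hspa1b, -0.096 and 0.0195 for Hspa8, -0.0464 and 0.0873 for Hspa4 and -0.297 and 0.0225 for Hspa4l. For age in runners they were -0.134 and 0.012 for Hsp90ab1, -0.00991 and 0.107 for Hspd1, -0.129 and 0.208 for Dnaja4, -0.00901 and 0.445 for Dnajb1 and -0.136 and 0.00346 for Cct2. For age by running interaction they were -0.0398 and 0.235 for Hsf1 and -0.116 and 0.199 for Hspe1.

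Hsf2 did not pass the filter of the limma fits in old mice and among runners, where the floor of the deposited values was 7.69, against 6.73 in young mice. It was tested in the voom model of 16 libraries. Hspa4l had 0 reads in 1 library.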
